A study of Mus musculus with 112 samples.

Results

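The 77 long noncoding RNAs (lncRNAs) described here had an entry in the SLAM-seq table of newly made RNA but none in the table of total RNA from the same cell line. They were chosen by gene identifier without version number, out of 492 lncRNAs in the SLAM-seq table, and the other 415 were in both tables. The study asked how U1 snRNP, a small RNA and protein particle that binds 5′ splice sites, affects where lncRNAs sit in mouse embryonic stem cells (ESCs). All cells were the SNRNP70-AID line, made from 46C mouse ESCs of strain 129/Ola, in which a degron tag on the U1 protein SNRNP70 lets the auxin indole-3-acetic acid (IAA) trigger its loss. In SLAM-seq, the +IAA groups had 2 h of IAA and then 3 h of IAA with 4-thiouridine (4sU), and the no IAA groups had 3 h of 4sU alone. Each treatment was read on chromatin (total RNA), in cytoplasm and in nucleoplasm (both polyA RNA), with 3 libraries per group and 18 in all. In polyA RNA-seq, cells after 4 h of IAA were set against cells at 0 h, in whole cells and on chromatin, again with 3 libraries per group. The tag and the line were the same in treated and untreated groups, and untagged cells given IAA, which would show what IAA does without the tag, were not analysed here, nor was the level of SNRNP70. The labels do not say that replicates were separate cultures, so p-values measure the spread between these libraries, which may be technical.

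SLAM-seq lets cells build 4sU into RNA made during the labelling, and chemical treatment then turns the labelled positions into T>C changes in the reads, so reads with such changes count new RNA. Many lncRNAs are spliced poorly and stay where they are transcribed, which makes the chromatin fraction rich in them. U1 snRNP begins spliceosome assembly and also protects young transcripts from early cleavage and polyadenylation.

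Of the 77 lncRNAs, 55 had Gm numbers, 13 were Rik clones, 3 were named as opposite-strand RNAs (Vax2os, Lppos, Tmem147os), 2 were hosts of small nucleolar RNAs (Snhg9, Snhg18), 3 had other names (Tunar, Inafm2, C4a) and 1 had an identifier only. RefSeq held 23 of them under the same symbol on build GRCm38.p6 and called 21 of these lncRNA. Inafm2 (chr2:118745758-118748810) is protein-coding there, and C4a (chr17:34809092-34823460) is a transcribed pseudogene. Of the 23, 14 overlapped another RefSeq gene and 10 a protein-coding one, among them Gm15222 (chr14:46387478-46389282) over Bmp4, Gm15283 (chr12:73934724-73952439) over Hif1a, and A930001C03Rik (chr19:4439323-4448325) over Rhod and Syt12. Whether the values count 1 strand is not given in the sources used here, so such a pair may share reads. None of the 77 was in the table of the antisense oligonucleotide experiment (0). How many of the other 415 were in it was not counted. In the polyA RNA table were 32 of the 77, which is 41.6% of them against 89.6% of the other 415.

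RefSeq promoter windows (250 bases before to 50 after a gene start) were at hand for 17 of the 77, with 21 windows in all. The windows below belong to the 5 lncRNAs that had one and whose new RNA on chromatin changed with IAA, as given further on. They mark RefSeq starts of these genes, and which start the cells used was not tested. C030037D09Rik lies at chr11:88718393-88718692, A930001C03Rik at chr19:4439073-4439372, Gm35048 at chr1:90506476-90506775, D130020L05Rik at chr12:101082201-101082500 and Gm15222 at chr14:46387228-46387527, all on the plus strand of GRCm38.p6. Capitals mark the GC box GGGCGG, the TATA box letters TATAAA and the 5′ splice site letters GGTAAG on either strand.

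C030037D09Rik: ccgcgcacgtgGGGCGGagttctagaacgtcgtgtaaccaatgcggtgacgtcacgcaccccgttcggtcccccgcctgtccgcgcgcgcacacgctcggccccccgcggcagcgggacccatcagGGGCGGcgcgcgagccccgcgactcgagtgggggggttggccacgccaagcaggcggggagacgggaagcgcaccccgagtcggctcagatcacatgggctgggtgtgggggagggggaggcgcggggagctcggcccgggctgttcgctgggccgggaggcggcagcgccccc

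A930001C03Rik: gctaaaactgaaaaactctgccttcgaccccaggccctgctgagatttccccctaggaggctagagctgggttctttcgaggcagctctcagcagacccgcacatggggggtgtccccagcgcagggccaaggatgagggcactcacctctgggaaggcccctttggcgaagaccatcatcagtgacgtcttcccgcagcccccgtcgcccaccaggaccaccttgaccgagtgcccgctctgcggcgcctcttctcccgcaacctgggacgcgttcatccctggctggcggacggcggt

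Gm35048: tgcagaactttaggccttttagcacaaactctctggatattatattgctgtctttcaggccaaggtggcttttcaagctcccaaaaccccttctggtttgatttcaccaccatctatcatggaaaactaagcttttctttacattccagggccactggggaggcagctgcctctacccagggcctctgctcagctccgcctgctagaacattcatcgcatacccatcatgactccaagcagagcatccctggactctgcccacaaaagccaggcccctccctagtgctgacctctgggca

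D130020L05Rik: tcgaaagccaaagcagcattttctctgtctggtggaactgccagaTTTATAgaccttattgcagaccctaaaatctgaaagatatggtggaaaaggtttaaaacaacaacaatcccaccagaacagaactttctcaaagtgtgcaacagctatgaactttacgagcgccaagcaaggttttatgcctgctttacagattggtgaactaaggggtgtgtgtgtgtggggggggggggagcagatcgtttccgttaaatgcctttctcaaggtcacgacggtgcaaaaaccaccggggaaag

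Gm15222: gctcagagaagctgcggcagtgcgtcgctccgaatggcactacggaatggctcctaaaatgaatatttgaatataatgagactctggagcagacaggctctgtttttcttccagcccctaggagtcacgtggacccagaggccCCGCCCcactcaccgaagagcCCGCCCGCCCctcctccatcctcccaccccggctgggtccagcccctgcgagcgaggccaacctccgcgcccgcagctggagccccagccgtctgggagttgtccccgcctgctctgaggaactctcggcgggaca

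The window of C030037D09Rik held the GC box 2 times and that of Gm15222 held it 3 times, with matches that partly overlap, while that of D130020L05Rik held TATAAA once on the minus strand (TTTATA as printed). The printed window of A930001C03Rik and that of Gm35048 held none of the 3 motifs. A930001C03Rik has a second window, chr19:4439309-4439608, not printed here, which held the GC box 5 times. Gm35048 also has a second window, chr1:90514134-90514433, not printed here, which held none of the 3 motifs. Across the 21 windows, 15 held GGGCGG, which is 71.4%, against 35.7% of all 32851 RefSeq mouse promoter windows of the same length. TATAAA was in 14.3% of the 21 against 13.6% of all, and GGTAAG in 9.52% against 9.67%. Windows of the same gene can overlap, as those of A930001C03Rik do, and a match describes letters only.

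Values of new RNA are reads with T>C changes scaled by the authors to ERCC spike-in RNA, called units here. Library depth over all 492 lncRNAs, recovered from the steps in which the values stand, was 99102 to 227237 reads on chromatin, 24927 to 46990 in cytoplasm and 39498 to 89879 in nucleoplasm. The 77 lncRNAs took 4.76% to 6.29%, 3.53% to 4.62% and 4.34% to 5.46% of these reads in that order. One read was worth 0.697 to 1.53 units on chromatin, 4.39 to 7.58 in cytoplasm and 1.64 to 3.39 in nucleoplasm, so the same number of units rests on fewest reads in cytoplasm. Of the 77, 8 to 21 stood at 0 in a cytoplasmic library, against 1 to 9 on chromatin and 0 to 2 in nucleoplasm; a count of 0 allows up to 3 reads. In polyA RNA of whole cells at 0 h, 7 of 8 ESC lncRNA markers were listed, at means of 1.68 to 149 FPKM, and none was at 0. Markers of differentiated cells were also listed for 7 of 8, at 0.227 to 43.4 FPKM, with Meg3 highest, and none was at 0; their part in the results below was not tested.

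Most of the 77 had few reads. The units are not divided by transcript length, so an order of lncRNAs by units is an order of reads. Averaged over the 18 libraries they ran from 10.3 to 1522 units with a median of 44.6, and the median of the other 415 was 72.4. Gm26917 had the highest average. On chromatin it had 1817, 2835 and 2704 units in +IAA libraries, and 2817, 2435 and 2703 in no IAA libraries. In cytoplasm it averaged 1383 ± 359.8 with IAA and 1384 ± 281 without, and in nucleoplasm 629 ± 173 and 629 ± 136 (SD, n = 3 each). Its groups overlapped in all 3 fractions, and in polyA RNA on chromatin it had 2937, 3131 and 3492 FPKM at 4 h against 3655, 3117 and 3659 at 0 h, which overlapped too. Gm44067 and Gm26916 stood apart from it by fraction. Gm44067 averaged 848 ± 69.3 units in cytoplasm, 458 ± 37.7 in nucleoplasm and 42.0 ± 14.7 on chromatin with IAA, and 796 ± 232, 381 ± 79.1 and 47.6 ± 7.46 without. Gm26916 averaged 725 ± 187, 492 ± 141 and 37.6 ± 4.00 units in the same order with IAA, and 591 ± 125, 453 ± 105 and 33.3 ± 13.9 without (SD, n = 3 each). Neither passed the IAA test in any fraction. At the other end, the lncRNA with an identifier only, ENSMUSG00000101556.1, averaged 10.3 units, and Gm42692 15.5.

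**Figure D1:**
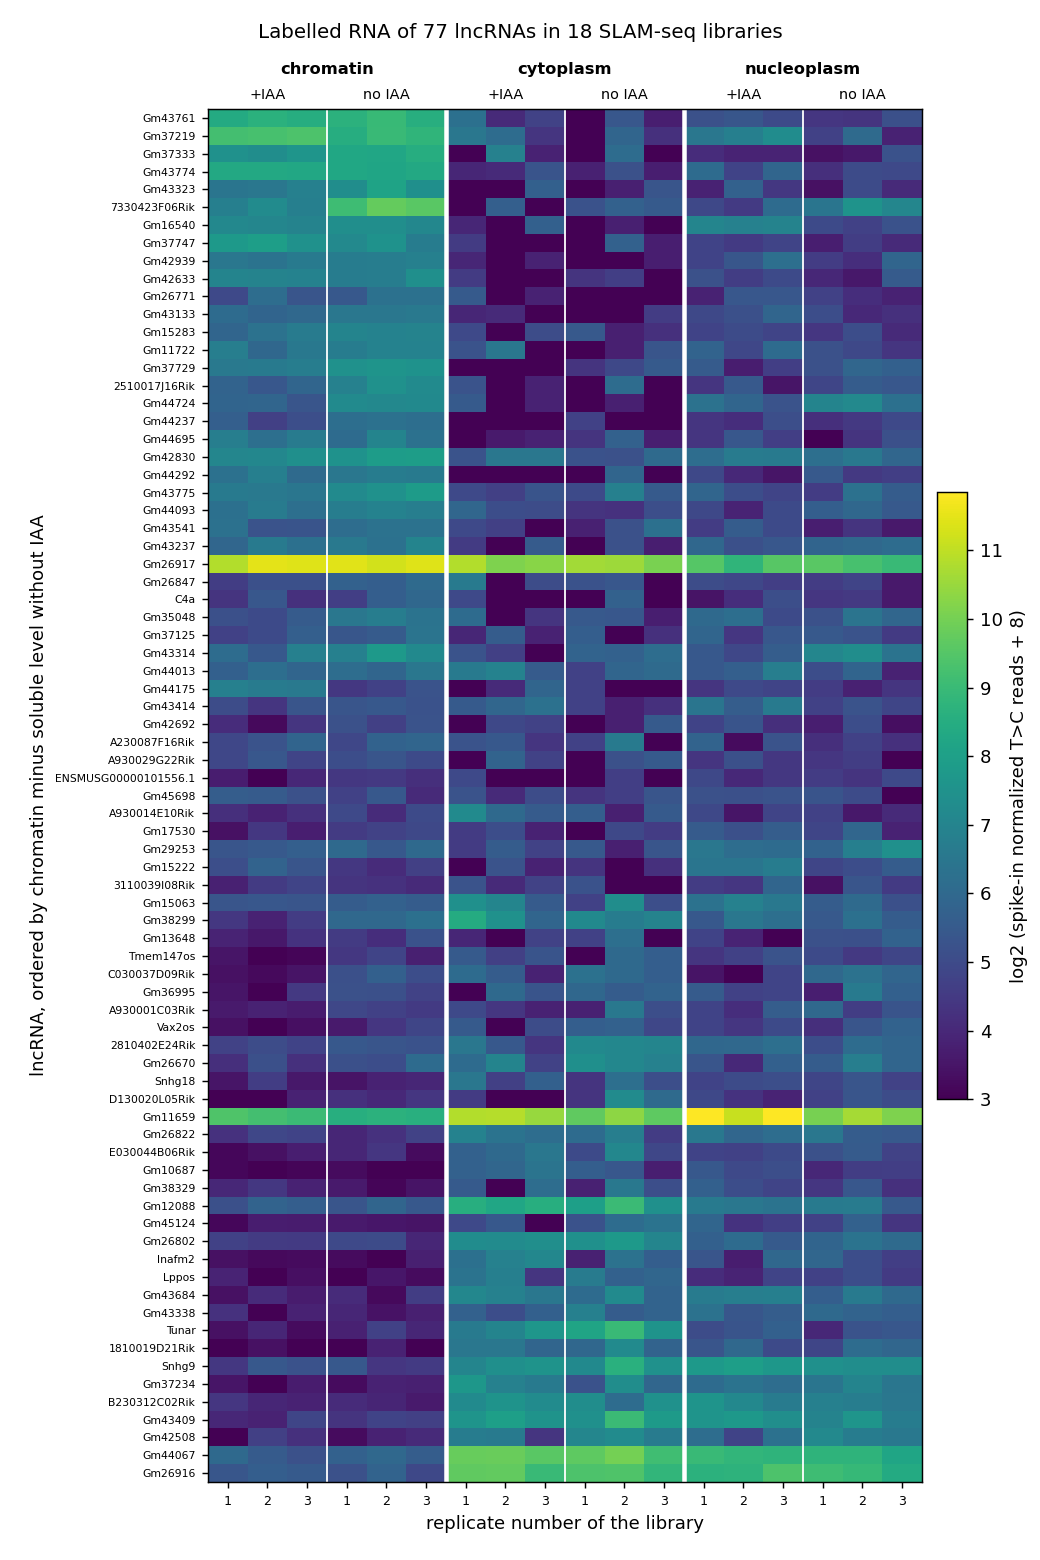
Each row is 1 of the 77 lncRNAs and each column 1 of the 18 SLAM-seq libraries, with +IAA left of no IAA in each fraction; colour gives log2 of spike-in normalized T>C reads plus 8. Rows run from lncRNAs highest on chromatin relative to the soluble fractions without IAA to those lowest there; Gm26917 and Gm11659 stand out as bright rows, and the cytoplasm shows most dark cells.

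By highest mean, 31 of the 77 lay on chromatin, 29 in cytoplasm and 17 in nucleoplasm with IAA, and 38, 30 and 9 without. Among the other 415 the counts were 126, 198 and 91 with IAA, and 161, 192 and 62 without. Only chromatin was read as total RNA, and cytoplasm and nucleoplasm were read as polyA RNA, so these orders also follow the kind of RNA taken. No test was made of them.

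New RNA on chromatin fell for 19 of the 63 lncRNAs tested there, rose for 4 and did not pass the test for 40 (limma with Benjamini-Hochberg adjustment over all 423 SLAM-seq lncRNAs tested, adjusted p under 0.05). To be tested, a lncRNA had to reach 8 units, the pseudocount added before taking log2, in 3 or more of the compared libraries, and the 14 others did not. Over all 423, 39.2% passed (33.6% fell, 5.67% rose), and the median change was -0.41 on the log2 scale, against -0.42 for the 63, so the share and the median of the 63 were near those of the whole table. The libraries of both groups did not overlap for 30 of the 63, against 50.1% of all. All changes are on the scale of log2(units + 8), which understates the change of low lncRNAs. With each library centred on its own median, the median over all 423 was 0.15 and 7 of the 63 rose and 6 fell. The 6 were among the 19 and the 7 included the 4. How many of all 423 rose or fell after centring is not given here, so these counts have no background. Of the 23 calls, 13 held without each of the 6 libraries in turn and 9 were lost at least once. C030037D09Rik held in the 3 runs that could test it, but only as a fall, so this is no support. It, A930001C03Rik and D130020L05Rik reached 8 units in no +IAA library, so they passed the filter through the no IAA group alone, could be tested only as falls and drop out of the test without any no IAA library. They are counted among the 19 falls, and their values are given as a description. Without no IAA replicate 3 the count of calls was 14. These are bulk samples, in which fewer cells of a type and less RNA per cell cannot be told apart.

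7330423F06Rik, a Rik clone of which no function is given here, fell furthest. It had 106, 145 and 106 units on chromatin with IAA, and 541, 870 and 769 without. The groups lay far apart, and the change was -2.52 ± 0.20 (log2, SE, adjusted p = 9.95e-07). In nucleoplasm it had 22.4, 14.8 and 61.0 units with IAA against 78.5, 177 and 125 without, again apart, a fall of -1.83 ± 0.42 (adjusted p = 0.000193). In cytoplasm it stood at 0, 43.9 and 0 units with IAA and at 29.9, 45.2 and 37.2 without, which overlapped, and it did not pass (adjusted p = 0.27).

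C030037D09Rik (ENSMUSG00000087574.1, chr11:88718643-88728572), whose GC-rich promoter window is printed above, had 2.59, 1.26 and 3.12 units on chromatin with IAA, from 3, 1 and 4 reads, and 27.5, 43.9 and 26.4 without. All +IAA libraries were below all no IAA libraries, and the change was -1.95 ± 0.31 (adjusted p = 0.000225). The filter let it through by its no IAA libraries alone, so on chromatin a fall was the only possible call. These chromatin values are a description. In nucleoplasm it had 3.19, 0 and 20.3 units with IAA and 55.0, 72.4 and 50.7 without, a fall of -2.29 ± 0.55 (adjusted p = 0.000334) with no overlap. Cytoplasmic levels of 60.6, 39.5 and 6.37 units with IAA overlapped the 71.9, 56.5 and 42.5 units without.

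Gm38299 had 13.8, 6.31 and 15.6 units on chromatin with IAA, and 55.0, 55.8 and 69.0 without, with every +IAA library lower (log2 -1.80 ± 0.30, adjusted p = 0.000348). In cytoplasm it had 341, 171 and 51.0 units with IAA against 138, 96.0 and 117 without, and in nucleoplasm 35.1, 82.1 and 67.8 against 36.6, 68.4 and 40.2. Both soluble fractions overlapped. Set against the mean of its changes in both soluble fractions, in 1 fit over all fractions, the chromatin change differed by -2.10 ± 0.60 (log2, adjusted p = 0.0343). It was the only 1 of the 77 to pass this test, in which 4.88% of all 492 passed, and it was lost without any 1 of 10 libraries. These were no IAA chromatin replicates 1, 2 and 3, +IAA chromatin replicates 1 and 2, +IAA cytoplasm replicate 1, no IAA nucleoplasm replicates 1 and 3 and +IAA nucleoplasm replicates 2 and 3, with adjusted p from 0.0599 to 0.115. After centring of the libraries, described above, none of the 77 passed (0). This test sets total RNA on chromatin against polyA RNA of the soluble fractions, so place and kind of RNA cannot be told apart in it. The fit took all libraries as independent. Whether same-numbered fractions of a treatment deviate together was not checked, and its p-value ignores that.

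Of the other falls on chromatin, 2510017J16Rik had 48.4, 34.1 and 50.7 units with IAA and 112, 171 and 144 without (log2 -1.52 ± 0.25, adjusted p = 0.000255). Gm44724 had 50.1, 51.8 and 32.8 with IAA and 144, 133 and 138 without (log2 -1.49 ± 0.23, adjusted p = 0.000225). Gm35048 (chr1:90506726-90524902) had 27.6, 24.0 and 39.0 with IAA and 84.1, 100.3 and 74.9 without (log2 -1.32 ± 0.26, adjusted p = 0.00141). In all 3 the groups stayed apart. With 7330423F06Rik, Gm38299 and C030037D09Rik, which could be tested only as a fall, they are the 6 that also fell after centring. Gm36995 was at 3.45, 0 and 14.1 units with IAA and at 29.1, 27.9 and 19.1 without (log2 -1.39 ± 0.38, adjusted p = 0.00946), and lost its call after centring. It also lost the call in edgeR on the authors' scale (0.0521) and with TMM (0.165), and in DESeq2 (0.112). Gm42692 had 9.50, 1.26 and 12.5 units with IAA against 29.1, 17.4 and 30.8 without (log2 -1.15 ± 0.36, adjusted p = 0.0202), but did not pass without no IAA replicate 1 or 3 or +IAA replicate 2 (adjusted p = 0.0802, 0.0911 and 0.0604). Nor did it pass after centring (0.234), in edgeR on the authors' scale (0.0610) or with TMM (0.211), or in DESeq2 (0.176). The 11 others that fell had changes of -1.12 to -0.59, and none of the 11 fell after centring. One of them was D130020L05Rik, whose promoter window is printed above and which could be tested only as a fall. It had 0, 0 and 6.25 units with IAA, from 0, 0 and 8 reads, and 10.7, 8.36 and 13.2 without (log2 -0.94 ± 0.33, adjusted p = 0.0360). This call was lost without +IAA replicate 1 or 2 (adjusted p = 0.136 and 0.0959), and also with either other pseudocount, after centring, in both edgeR fits and in DESeq2 (adjusted p from 0.0528 to 0.416).

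The 4 rises on chromatin were Gm44175, Gm15222, Gm11659 and Gm37219. Gm44175 had 109, 96.0 and 86.7 units with IAA against 13.8, 18.1 and 30.8 without, with no overlap (log2 1.90 ± 0.29, adjusted p = 0.000171), and this was the largest rise of the 423 tested. Its cytoplasm and nucleoplasm stayed low, at 0, 8.77 and 51.0 and at 12.8, 23.0 and 20.3 units with IAA, against 18, 0 and 0 and 15.7, 6.04 and 12.7 without. Neither soluble fraction passed.

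Gm11659, second in average level, had 670.1, 578 and 521 units on chromatin with IAA against 364, 407 and 379 without (log2 0.61 ± 0.15, adjusted p = 0.00576). In nucleoplasm it had 3690.1, 2204 and 3692 with IAA against 1031, 1616 and 1131 without (log2 1.33 ± 0.22, adjusted p = 4.43e-08). Both fractions were apart, and cytoplasm had 1826, 1877 and 1414 units against 820.4, 1299 and 798, also apart but not past the threshold (log2 0.83, adjusted p = 0.0917). Gm37219 had 588, 609 and 653 units on chromatin with IAA and 355, 503 and 430 without (log2 0.53 ± 0.16, adjusted p = 0.0178). It lost this call without no IAA replicate 1 or 3 or +IAA replicate 3 (adjusted p = 0.0914, 0.0624 and 0.0759). In nucleoplasm it had 83.1, 105 and 149 with IAA against 18.3, 58.4 and 6.34 without, apart (log2 2.00 ± 0.45, adjusted p = 0.000104). Gm15222 overlaps the gene of the growth factor Bmp4. It had 26.8, 48.0 and 32.8 units on chromatin with IAA and 13.8, 9.06 and 17.6 without (log2 1.02 ± 0.31, adjusted p = 0.0191), and 79.9, 78.8 and 98.3 against 20.9, 26.2 and 40.2 in nucleoplasm (log2 1.36 ± 0.45, adjusted p = 0.0126). The chromatin call was lost without replicate 2 of no IAA (adjusted p = 0.0841) or of +IAA (0.0511), and the nucleoplasm call without no IAA replicate 1 (0.0617) or +IAA replicate 3 (0.0561).

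**Figure D2:**
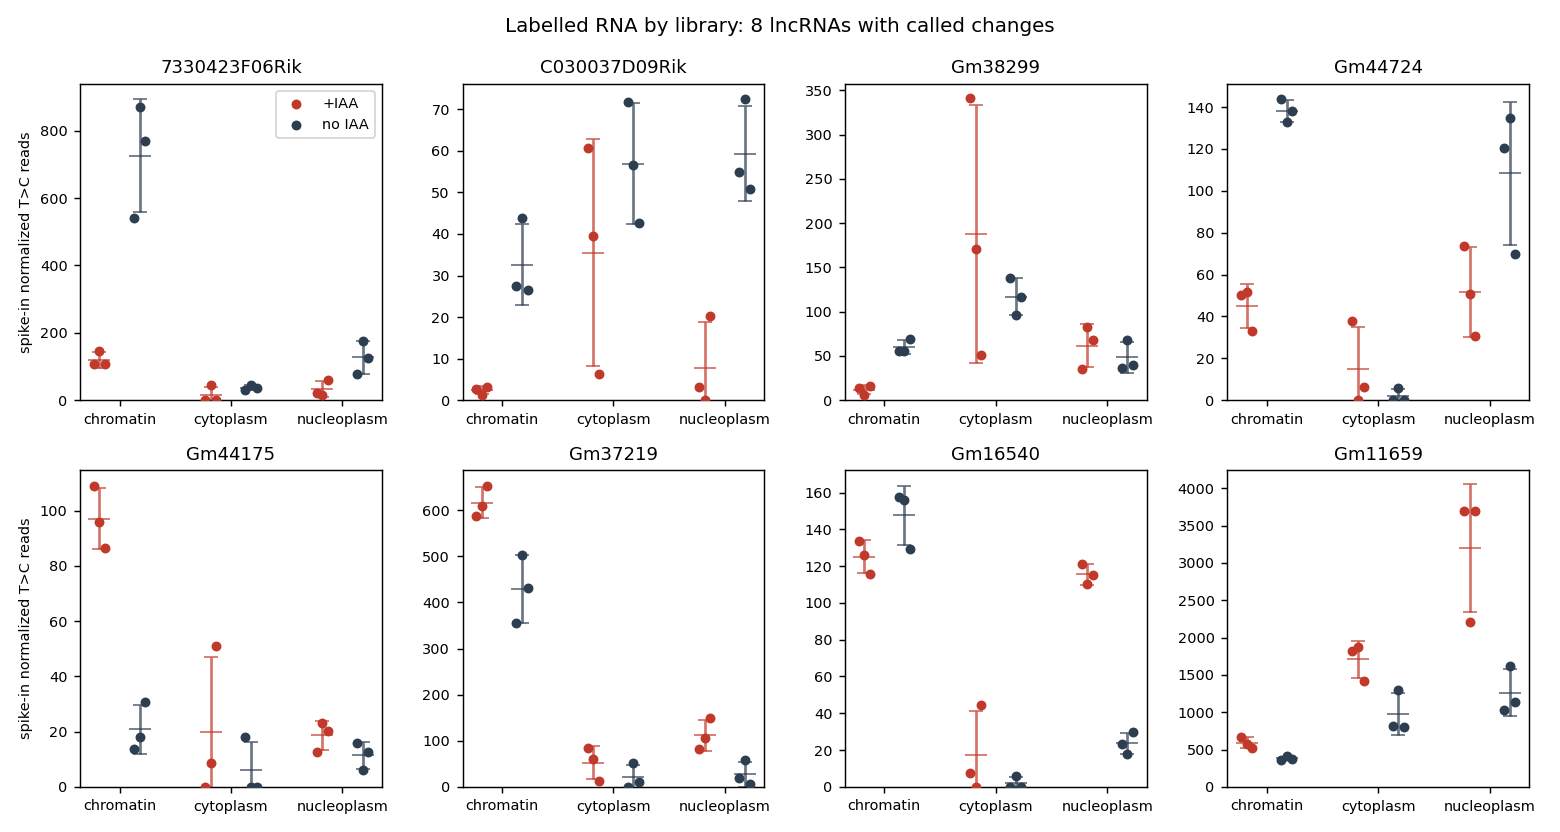
Each panel is 1 lncRNA, with 3 points per group for the libraries, a dash for the mean and bars for the SD, +IAA (red) left of no IAA (dark) in chromatin, cytoplasm and nucleoplasm; the y axis is spike-in normalized T>C reads from 0. In 7330423F06Rik, C030037D09Rik, Gm38299 and Gm44724 the red chromatin points sit below the dark ones, while in Gm44175 they sit above (86.7 units or more against 30.8 or less), and Gm16540 differs in nucleoplasm.

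In nucleoplasm, 76 of the 77 could be tested, 5 rose and 5 fell (13.2%), against 27.3% of all 490 tested (17.8% rose, 9.59% fell). Libraries did not overlap for 17 of the 76, against 36.9% of all. The median change was 0.28 for the 76 and 0.21 for all, which centring brought to 0.11 and 0.04, with 4 of the 76 rising and 7 falling. The calls over all 490 after centring are not given here. Besides Gm37219, Gm11659 and Gm15222, Gm16540 rose. It had 121, 110 and 115 units with IAA and 23.6, 18.1 and 29.6 without, with no overlap (log2 1.97 ± 0.44, adjusted p = 9.16e-05). On chromatin it had 134, 126 and 116 units with IAA and 157, 156 and 129 without, which overlapped. Gm43414 rose as well, at 79.9, 41.1 and 91.5 units against 18.3, 30.2 and 21.1 (log2 1.29 ± 0.48, adjusted p = 0.0320), but lost its call after centring and without replicates 1 or 3 of either group (adjusted p up to 0.142). Its call was also lost in edgeR with TMM (0.0503) and in DESeq2 (0.0652).

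The nucleoplasmic falls other than 7330423F06Rik and C030037D09Rik were Gm43314, Gm13648 and Gm42508. Gm43314 had 35.1, 21.4 and 40.7 units with IAA and 126, 155 and 74.0 without, with no overlap (log2 -1.62 ± 0.42, adjusted p = 0.000970). On chromatin it had 62.2, 35.4 and 109 units with IAA and 109, 206 and 139.5 without (log2 -1.12 ± 0.33, adjusted p = 0.0152), with the highest +IAA library (108.5) next to the lowest no IAA library (108.6), a call lost without no IAA replicate 2 or 3 (adjusted p = 0.0754 and 0.0564). The chromatin call was also lost after centring (0.194), in edgeR with TMM (0.222) and in DESeq2 (0.158). Gm13648 (chr4:156052715-156059802) spans the genes of the microRNAs Mir200a, Mir200b and Mir429. It had 19.2, 6.57 and 0 units in nucleoplasm with IAA against 28.8, 28.2 and 46.5 without (log2 -1.51 ± 0.57, adjusted p = 0.0347), and lost the call in 5 of 6 runs that left out 1 library, all but that without +IAA replicate 1 (adjusted p from 0.0598 to 0.193). The call was also lost with the lower pseudocount (0.0616) and in edgeR on the authors' scale (0.0800) and with TMM (0.0612). Gm42508 had 63.9, 19.7 and 71.2 against 136, 96.6 and 84.6 (log2 -1.05 ± 0.40, adjusted p = 0.0372) and lost it without no IAA replicates 1 or 2 or +IAA replicate 2 (adjusted p up to 0.362), with the lower pseudocount (0.0607), in edgeR on the authors' scale (0.0710) and with the replicate number as a block (0.0620). Without no IAA nucleoplasm replicate 1, 6 calls were left of the 10.

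**Figure D3:**
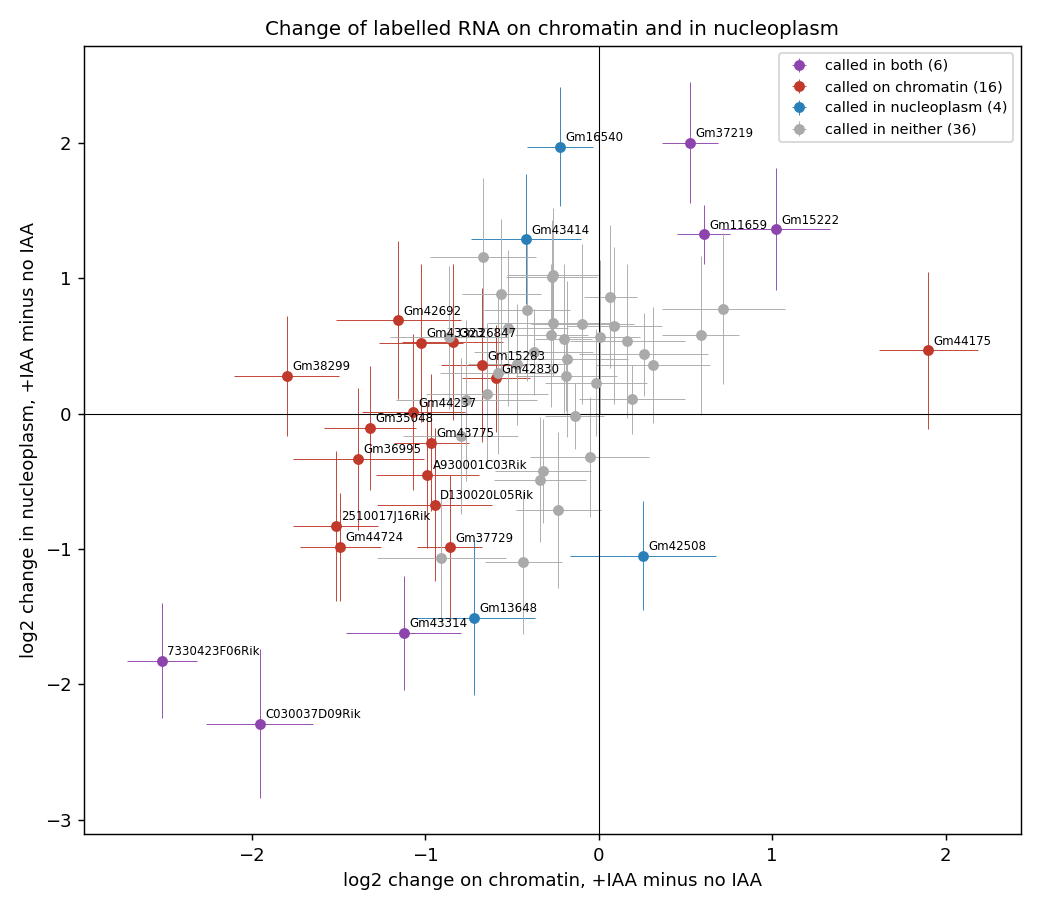
Points are the 62 lncRNAs tested in both fractions, with the log2 change on chromatin on the x axis and in nucleoplasm on the y axis (+IAA minus no IAA, bars are SE); colour tells where a change passed adjusted p 0.05. The 6 that passed in both lie in the lower left (3 falls) and upper right (3 rises), and Gm44175 lies far right with a nucleoplasm change of 0.47. Among the 3 falls, C030037D09Rik could be tested on chromatin only as a fall.

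Of the 19 falls and 4 rises on chromatin, 3 falls and 3 rises were also called in nucleoplasm, where there were 5 of each. Of the 62 tested in both, that is 16.7% of the 18 falls on chromatin and 60% of the 5 in nucleoplasm, against 27% and 92.7% over all 421 lncRNAs tested in both. For rises it is 75% of the 4 on chromatin and 60% of the 5 in nucleoplasm, against 87.5% and 24.7% over all. Among the 3 shared falls, C030037D09Rik could be tested on chromatin only as a fall. In cytoplasm, 0 of 63 tested passed in limma, against 10.6% of all 423 (6.62% rose, 4.02% fell). An unadjusted p under 0.05 was found for 7 of the 63 and for 92 of all 423. Libraries did not overlap for 6 of the 63, against 25.3% of all. The lowest adjusted p was 0.0605, for D130020L05Rik, at 15.2, 0 and 0 units with IAA and 12.0, 147 and 58.5 without. Those libraries overlapped, and 2 of the +IAA libraries had no read of it. On recovered reads, edgeR called D130020L05Rik on the authors' scale (adjusted p = 0.0344), and with TMM scaling it called a rise of Gm11659 (adjusted p = 0.00553) and a fall of Tunar (adjusted p = 0.0486). DESeq2 called the same rise and fall (adjusted p = 0.000954 and 0.0402), and so did limma after centring (adjusted p = 0.00143 and 0.0444). TMM, DESeq2 and centring all set the authors' spike-in scale aside. With at most 46990 reads a library and 4.39 units or more per read, cytoplasmic values rest on the fewest reads; the part of depth in the count of calls was not tested.

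Between the polyA RNA of the soluble fractions without IAA, 11 of 74 tested differed, 5 higher in nucleoplasm and 6 lower, against 24.8% of all 475 (9.26% higher, 15.6% lower). Libraries of the fractions did not overlap for 19 of the 74, against 42.1% of all. These lncRNAs fall outside the rule for named genes and were picked after their values were seen, except where they are named elsewhere. Tunar (chr12:105336594-105383932), a lncRNA known from work in mouse ESCs and neural cells, had 7.85, 30.2 and 33.8 units in nucleoplasm and 281, 503 and 181 in cytoplasm (log2 -3.37 ± 0.54, adjusted p = 2.23e-05), the lowest change of the 475. Gm12088 had 91.6, 94.6 and 35.9 in nucleoplasm and 246, 514 and 165 in cytoplasm, also apart (log2 -1.89 ± 0.48, adjusted p = 0.00515). Gm44724 lay the other way, at 120.4, 135 and 69.8 units in nucleoplasm and 0, 5.65 and 0 in cytoplasm, from 46, 67 and 33 reads against 0, 1 and 0 (log2 3.56 ± 0.69, adjusted p = 0.000301), a fitted value that depends on the pseudocount. Gm44724 and Gm16540, both among the 5 higher, reached 8 units in no cytoplasmic library. They could be tested only as higher in nucleoplasm, and their values are a description. The calls of Tunar and Gm12088 held without each of the 6 libraries in turn. Gm44724 passed in the 3 runs that could test it, but only as higher, so this is no support. The other 8 were lost without at least 1 library. Without no IAA nucleoplasm replicate 3, 2 calls were left. After centring, 8 were higher and 6 lower in nucleoplasm, and the counts over all 475 after centring are not given here.

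Named lncRNAs that passed no IAA test are given by their levels. With IAA, Tunar had 90.9, 118 and 191 units in cytoplasm against 281, 503 and 181 without, which overlapped (log2 -1.16, adjusted p = 0.109). Snhg9 (chr17:24719531-24719965), host of Snora78 and overlapping the ribosomal protein gene Rps2, had 211, 243 and 197 units in nucleoplasm against 165, 155 and 152 without, apart but not past the threshold (log2 0.44, adjusted p = 0.312). Inafm2 had 68.2, 110 and 127 units in cytoplasm against 5.99, 73.5 and 42.5 without, which overlapped (log2 1.47, adjusted p = 0.219). Snhg18, Lppos, Tmem147os and C4a averaged no more than 64.7 units in any group and overlapped between treatments in the fractions where they were tested.

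The polyA table gave a separate set of libraries for 32 of the 77. In whole cells, 28 were tested and 1 fell, Gm43314, against 20% of all 1135 lncRNAs tested there (13% rose, 7.05% fell). Libraries did not overlap for 5 of the 28, against 36.5% of all. Gm43314 had 0.43, 0.47 and 0.38 FPKM at 4 h and 1.4, 1.17 and 0.85 at 0 h, apart (log2 -1.21 ± 0.27, adjusted p = 0.0140, on log2(FPKM + 0.1)). The call was lost without 0 h replicate 1 or 2 (adjusted p = 0.0628 and 0.0517). On chromatin 30 were tested, 10 fell and 1 rose, against 45.8% of all 1217 (36.8% fell, 8.96% rose). Libraries did not overlap for 10 of the 30, against 54.6% of all. The median change was -0.37 for the 30 and for all. After centring 5 of the 10 falls were left, with 3 rises, and the median over all was 0.11. The calls over all 1217 after centring are not given here.

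A930001C03Rik fell furthest on chromatin in polyA RNA, with 0.48, 0.60 and 0.36 FPKM at 4 h and 1.44, 1.66 and 1.57 at 0 h (log2 -1.53 ± 0.21, adjusted p = 0.000965). Its new RNA on chromatin had 4.32, 6.31 and 4.68 units with IAA and 21.4, 18.1 and 14.7 without (log2 -0.99 ± 0.30, adjusted p = 0.0165), a call lost without +IAA replicate 1 (adjusted p = 0.0562). That call could only be a fall, and was also lost after centring (0.271), in edgeR with TMM (0.0832) and in DESeq2 (0.137). Gm43314 had 1.67, 1.41 and 0.96 FPKM at 4 h and 3.5, 3.69 and 4.07 at 0 h (log2 -1.44 ± 0.20, adjusted p = 0.000983). Groups were apart in all of these. Vax2os (chr6:83692804-83712201), which overlaps the homeobox gene Vax2, had 0.19, 0.25 and 0.41 FPKM at 4 h and 0.99, 0.78 and 0.88 at 0 h (log2 -1.39 ± 0.27, adjusted p = 0.00407), and was not tested in new chromatin RNA, where it stood at 2.59, 0 and 2.34 units with IAA and 4.59, 13.2 and 20.6 without. Gm15283, over Hif1a, had 0.25, 0.22 and 0.15 FPKM against 0.52, 0.66 and 0.74 (log2 -1.27 ± 0.24, adjusted p = 0.00412). Its new RNA on chromatin was 51.0, 73.2 and 93.7 units with IAA against 119, 115 and 117 without (log2 -0.67 ± 0.24, adjusted p = 0.0388), and lost that call without +IAA replicate 1 or any no IAA library (adjusted p from 0.0748 to 0.139). It was also lost after centring (0.764), in edgeR with TMM (0.571) and in DESeq2 (0.598). Gm36995 had 0.54, 0.62 and 0.52 FPKM at 4 h and 1.31, 1.29 and 1.32 at 0 h (log2 -1.09 ± 0.18, adjusted p = 0.00176). These 5, together with Gm26670, Gm38299, Gm35048, 2810402E24Rik and Gm17530, were the 10 that fell. Gm26670, Gm38299 and Gm17530 each lost their call without some single libraries (adjusted p up to 0.0656, 0.0598 and 0.133). Gm44013 was the 1 rise, at 0.98, 1.44 and 1.18 FPKM against 0.72, 0.70 and 0.62 (log2 0.72 ± 0.20, adjusted p = 0.0208), lost without 0 h replicate 2 or 3 or 4 h replicate 2 (adjusted p = 0.0513, 0.0522 and 0.0759).

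**Figure D4:**
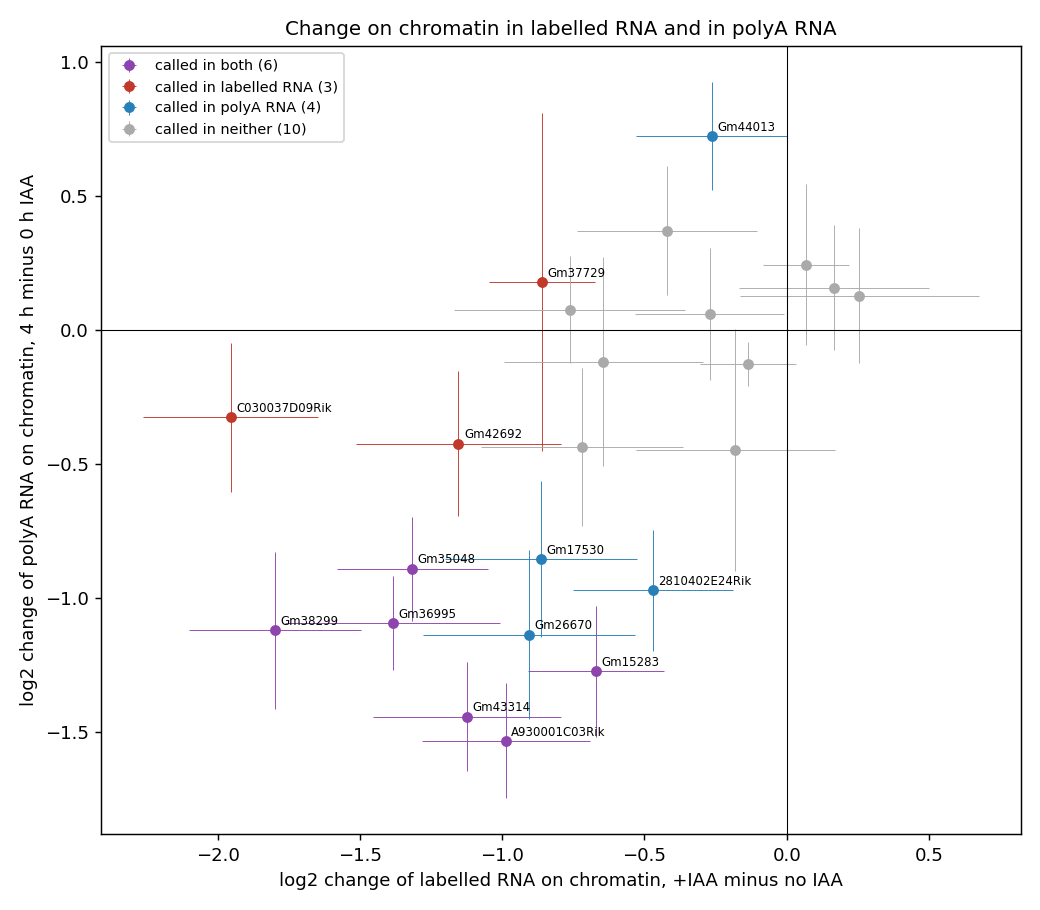
Points are the 23 lncRNAs tested on chromatin in both assays, with the log2 change of new RNA on the x axis (+IAA minus no IAA) and that of polyA RNA on the y axis (4 h minus 0 h of IAA), bars SE. The 6 that passed in both lie below 0 on both axes, and C030037D09Rik lies far left with a polyA change of -0.33. In new RNA C030037D09Rik could be tested only as a fall.

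On chromatin, 23 lncRNAs were tested in new RNA and in polyA RNA. In each assay 9 of them fell and 6 fell in both, which is 66.7% of each set of falls. Over all 352 lncRNAs tested in both, 89 fell in both, which is 72.4% of the 123 falls in new RNA and 56% of the 159 in polyA RNA. The 6 were A930001C03Rik, which the filter on new RNA let through as a fall only, Gm43314, Gm15283, Gm36995, Gm38299 and Gm35048. After centring, none of the 6 fell in both assays. A930001C03Rik, Gm43314, Gm15283 and Gm36995 lost the call in new RNA (limma, adjusted p = 0.271, 0.194, 0.764 and 0.111). Gm38299 and Gm35048 lost it in polyA RNA (adjusted p = 0.135 and 0.155). The overlap over all 352 after centring is not given here. C030037D09Rik fell in new RNA, where only a fall could be called. In polyA RNA it had 0.16, 0.36 and 0.33 FPKM at 4 h against 0.35, 0.40 and 0.35 at 0 h, which overlapped (limma, log2 -0.33, adjusted p = 0.380). These values are near the pseudocount of 0.1 FPKM, which understates a change. The assays also differ in kind of RNA and in hours of IAA. The largest fall in new RNA, that of 7330423F06Rik, had no polyA value, and neither did any of the 4 rises. Over the 6 IAA comparisons, 32 of the 77 had at least 1 call, 25 of them falls and 7 rises, none in both directions (0), and 45 had none. Of all 492, 341 had at least 1 call, which is 69.3% against 41.6% of the 77, and fewer of the 77 were in the polyA table, as given above. Of the 341, 214 had falls only, 98 rises only and 29 both.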

How the data were processed

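The deposited SLAM-seq values are a signal, which the headers name as T>C read counts normalized by the authors to spike-in RNA. The deposited polyA values are FPKM; the authors scaled those of chromatin to spike-in RNA according to the headers, which name no such step for whole cells. Of the total RNA table, the deposited identifiers served only to apply the rule. The submitters' processing notes name CASAVA, TopHat, Cufflinks and build mm10, and the sources used here give no versions, annotation or read filters. Labels describe a strand-keeping library kit.

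Values were log2(value + pseudocount), the pseudocount being the 10th percentile of values above 0 (8 units for SLAM-seq, 0.1 for FPKM). Each comparison was fitted over all lncRNAs of its table with limma 3.58.1 (R 4.3.3, eBayes with trend) and Benjamini-Hochberg adjustment at 0.05. The SLAM-seq fits of IAA within a fraction were also run on simulated counts, and the outcome is not given here. The shift, the soluble-fraction and the polyA fits were not simulated. The polyA table kept 1246 lncRNAs once 2 entries sharing 1 identifier were dropped. Whole reads, within 0.1 read, were recovered from the SLAM-seq value steps in all 18 libraries (100% of values), and edgeR 4.0.16 and DESeq2 1.42.0 were run on them as alternatives. FPKM libraries come with no depth. The main fits used no replicate block.

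Named lncRNAs were those past adjusted p 0.05 in an IAA comparison (at most 8 per comparison), the 6 highest and 2 lowest on average, and those with proper names, 31 in all; the text gives part of them, and also names some others where a count is small. The lncRNAs, lists and rule were chosen with earlier results of these data known. Pol II peak lists, on build mm9, were not used here. Intervals and limits of 3 reads cover counting error only.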

Additional observations from a re-analysis of the deposited data

Results flagged for a closer look

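In the fit over all fractions, the effect of IAA on Gm38299 passed as different between chromatin and the soluble fractions, but 13 of 26 alternatives lost the call. Its change on chromatin, less the mean of its cytoplasmic and nucleoplasmic changes, came to -2.10 on the log2 scale (limma, adjusted p = 0.0343 over all lncRNAs tested). On chromatin 3 of 3 +IAA libraries were below every no IAA library, while the libraries of both soluble fractions overlapped. The call was lost in 10 of 18 runs without 1 library (adjusted p up to 0.115), after centring, with the pseudocount at the median and in edgeR with TMM. Groups of 3 libraries were not searched for single libraries that stand apart. The fit took same-numbered fractions of a treatment as independent, which was not checked.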

How the results depend on the processing

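No called change turned its sign under any alternative (0). Counts of calls among the 77 lncRNAs moved as follows. The matching counts over all lncRNAs are not given here, so a move cannot be read as particular to the 77. On chromatin, 23 calls became 13 with libraries centred on their medians, 12 in edgeR with TMM and 14 in DESeq2, and 14 to 23 without single libraries. In cytoplasm, 0 calls became 1 with the pseudocount at the median, 2 after centring, 1 in edgeR on the authors' scale, 2 with TMM, 2 in DESeq2, and 0 to 1 without single libraries. In nucleoplasm, 10 became 6 to 10 without single libraries. For the chromatin shift, 1 became 4 with the pseudocount at the median, 0 where every library had to reach the pseudocount, 0 after centring, 2 in edgeR on the authors' scale, 0 with TMM, 3 in DESeq2, and 0 to 4 without single libraries. Between nucleoplasm and cytoplasm, 11 became 5 with the lower pseudocount, 7 with the stricter filter, and 2 to 11 without single libraries. In polyA RNA, the 1 call of whole cells became 2 with the pseudocount at the median, 3 with the stricter filter, and 0 to 2 without single libraries, and the 11 of chromatin became 8 to 12. Centring removes a shift shared by most lncRNAs, which the spike-in scaling keeps. TMM and DESeq2, which scales libraries from their own reads, also set the spike-in scale aside, so they are not checks separate from centring. Other causes were not tested. Replicate numbers were not treated as pairs, since in no IAA comparison checked did same-numbered libraries deviate together for every number. Between nucleoplasm and cytoplasm without IAA they did, if weakly (correlations 0.113, 0.0820 and 0.0288), and that fit ignores it. With the block, Gm16540 lost its call there (limma, adjusted p = 0.0553). With the number as a block there were 25 calls on chromatin, 1 in cytoplasm, 9 in nucleoplasm, 1 for the shift, 12 between soluble fractions, and 2 and 10 in polyA whole cells and chromatin. Cytoplasmic libraries held the fewest reads, 24927 to 46990, and the part of depth in the counts was not tested. Without a library of their high group, a few low lncRNAs miss the filter and give no value.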
